A study of Mus musculus with 10 samples.

Results

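The transcripts of the 6 mouse topoisomerase genes Top1, Top1mt, Top2a, Top2b, Top3a and Top3b, and of the 2 tyrosyl-DNA phosphodiesterase genes Tdp1 and Tdp2, were followed in hearts after doxorubicin. These 8 genes were chosen by symbol, out of 78298 genes in the count table, and all 8 passed the filter on low counts among the 16700 genes tested. The knockout group held 5 libraries from hearts of female mice with a germline deletion of p38δ, a stress-activated kinase encoded by Mapk13. The wild-type (WT) group held 5 libraries from hearts of female mice labelled as wild type. Both groups were on a C57BL/6J background, both received 1 intraperitoneal dose of doxorubicin at 30 mg/kg, and both were collected 72 h later. No heart without doxorubicin was analysed here, so differences are between genotypes among treated hearts. The labels do not describe the deleted exons, the age of the mice or whether hearts were pooled.

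Topoisomerases cut DNA, let it turn or pass another strand, and close it again, holding the cut end on a tyrosine of the enzyme. Type II enzymes cut both strands, and anthracyclines such as doxorubicin trap them on DNA, where the enzyme left behind must be removed by nucleases, proteases or tyrosyl-DNA phosphodiesterases. Dividing cells carry mainly topoisomerase IIα, encoded by Top2a, whereas adult heart muscle carries topoisomerase IIβ, encoded by Top2b, and loss of Top2b in mouse cardiomyocytes is known to protect the heart from doxorubicin.

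Library totals were 21403189 to 33477767 counts in knockout hearts and 22082289 to 40627138 counts in WT hearts. The targeted gene Mapk13 held 9 to 15 counts per knockout library, against 1 to 5 counts in WT libraries 2 to 5 and 292 counts in WT library 1. Since the knockout libraries held more counts than 4 of the 5 WT libraries, Mapk13 is no check of the genotype labels, which are used here as given. WT library 1 stood apart. Its 12 lung and airway markers reached a summed level of 874 CPM (counts scaled to a common library size), against 0.571 to 1.58 CPM in knockout libraries and 0.435 to 76.9 CPM in the other WT libraries. Markers of ventricular cardiomyocytes such as Myh6 and Tnnt2 were present in every library, at a summed level of 28707 to 64093 CPM in knockout hearts and 21551 to 49310 CPM in WT hearts. The defining atrial markers Myl7, Sln and Bmp10 were near 0 in knockout hearts, at 0.210 ± 0.125, 0.0220 ± 0.0320 and 0.0274 ± 0.0157 CPM (SD, n = 5). In WT library 1 they stood at 173, 104 and 99.4 CPM. The labels name the tissue as heart and do not say which chambers were taken.

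None of the 8 genes passed the test between genotypes. Of the 16700 genes tested, 0.353% were called at an adjusted p of 0.05 (edgeR quasi-likelihood test), and 0 of the 8 were. The adjusted p values of the 8 lay between 0.811 and 0.997 by edgeR, and 0 had an unadjusted p under 0.05, which 6.86% of all tested genes had. By DESeq2 and by limma voom 0 of the 8 were called as well, although DESeq2 returned no p for Top2a. The groups overlapped for each of the 8, where 1.78% of all tested genes had groups that did not overlap. Of the 8 log2 fold changes, 6 were below 0 and 2 above, with a median of -0.01, and the median over all tested genes was -0.01 too. For the 7 genes other than Top2a the 95% intervals for the fold, knockout over WT, lay within 0.792 and 1.18. The members lie on chromosomes 2, 11, 12, 13, 14, 15 and 16, and 0.0883% of tested genes placed outside chromosome 17, the chromosome of Mapk13, were called.

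**Figure D1:**
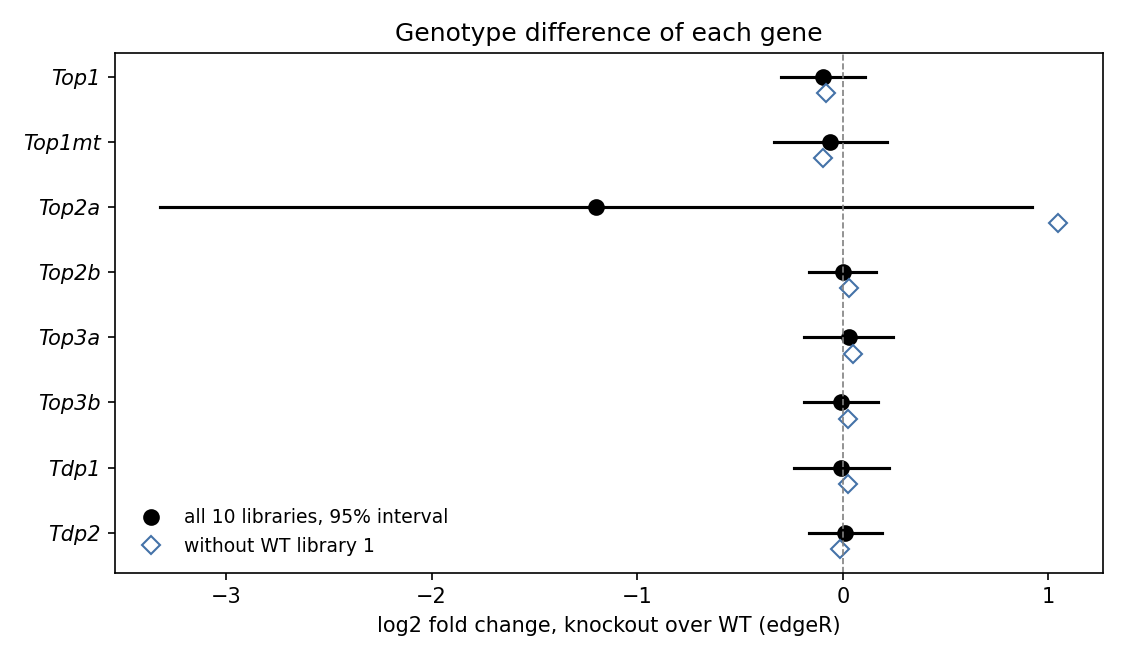
Log2 fold change, knockout over WT, for each gene (x axis), with filled circles for the fit to all 10 libraries, lines for its 95% interval and open diamonds for the fit without WT library 1. The circles of 7 genes lie between -0.10 and 0.03. Top2a is at -1.20 with all libraries and at 1.04 without WT library 1, and neither value passed the test.

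The 2 type II genes stood at the opposite ends of the level order given below. Their upstream sequences are shown because Top2a is known as a gene of dividing cells and Top2b is not. RefSeq starts with upstream sequence were held for 5 of the 8 genes. The window printed runs from 250 to 51 bases before the RefSeq start, and was placed on GRCm39 by exact match at chr11:98915066-98915265 for Top2a and chr14:6104608-6104807 for Top2b, both on the minus strand (RefSeq promoter table, build GRCm38.p6). Capitals mark CCAAT, the pentamer that the factor NF-Y binds, on either strand.
Top2a: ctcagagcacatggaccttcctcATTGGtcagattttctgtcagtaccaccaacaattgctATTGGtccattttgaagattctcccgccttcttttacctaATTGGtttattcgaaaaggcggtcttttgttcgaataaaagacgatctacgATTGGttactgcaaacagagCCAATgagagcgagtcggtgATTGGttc
Top2b: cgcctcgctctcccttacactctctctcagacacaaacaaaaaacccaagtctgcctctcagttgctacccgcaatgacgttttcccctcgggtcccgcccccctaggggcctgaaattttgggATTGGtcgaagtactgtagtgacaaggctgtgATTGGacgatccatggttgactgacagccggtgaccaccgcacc

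The Top2a window holds 6 copies of CCAAT, 1 on the printed strand and 5 as ATTGG, whereas the Top2b window holds 2, both as ATTGG. Of 32851 mouse promoter windows of the same length, 28.4% hold at least 1 copy and 3, that of Top2a among them, hold 6 or more. The windows of Top1 and Tdp1 hold none and that of Top3b holds 1. The Top2a window also holds 1 copy of TTTGAA on either strand, the core of the element known as the cell cycle gene homology region, which 13.6% of all windows hold and the other 4 members' windows do not. Among 33 windows of 30 genes listed for proliferation, 57.6% hold CCAAT and 18.2% hold TTTGAA. The letters describe these windows only, and no factor binding was measured.

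Top2b (ENSMUSG00000017485, chromosome 14, 6034301 to 6104605, GRCm39) had the most counts of the 8 genes and 1 of the smallest spreads. Knockout libraries 1 to 5 held 81.0, 84.9, 91.1, 99.7 and 88.9 CPM, against 95.6, 82.0, 91.0, 92.3 and 85.2 CPM in WT libraries 1 to 5. The 2 sets of values overlap over most of their range, with the highest in knockout library 4 and the lowest in knockout library 1. The means were 89.1 ± 7.08 CPM in knockout hearts and 89.2 ± 5.51 CPM in WT hearts (SD, n = 5 each). The log2 fold change was -0.0014 with a standard error of 0.08 (edgeR adjusted p = 0.997), and its 95% interval for the fold ran from 0.891 to 1.12. The spread of Top2b within groups, a standard deviation of 0.10 on the log2 CPM scale, was smaller than that of all but 8.46% of tested genes. The 3′ end of Top2b overlaps that of Rarb on the other strand by 6794 bases. Rarb, which encodes a retinoic acid receptor, held 191 to 431 counts per library, against 1913 to 4350 for Top2b. The strand setting of the counting is not given in the sources used here, so reads in that overlap are uncertain.

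Top2a (ENSMUSG00000020914, chromosome 11, 98883769 to 98915062) rested on 22 counts or fewer in each library but 1. Knockout libraries 1 to 5 held 22, 8, 10, 10 and 15 counts, against 203, 9, 8, 1 and 13 counts in WT libraries 1 to 5. As levels these were 0.866, 0.282, 0.476, 0.324 and 0.449 CPM in knockout hearts, against 4.46, 0.230, 0.249, 0.0481 and 0.334 CPM in WT hearts. WT library 1 alone was high, 5.15 times the next library, and WT library 4, with 1 count, was under the floor of 3 counts. The group means were 0.479 ± 0.231 CPM in knockout hearts and 1.06 ± 1.90 CPM in WT hearts (SD, n = 5 each). The fitted log2 fold change of -1.20 had a standard error of 0.96 and did not pass (edgeR adjusted p = 0.811). Without WT library 1 its sign turned, to 1.04 with a standard error of 0.46, again not called (edgeR adjusted p = 0.801, unadjusted p = 0.0423). The WT mean was then 0.215 ± 0.120 CPM (SD, n = 4), and knockout libraries 2 and 4 still lay below WT library 5. Limma voom, which weights libraries by quality, also put Top2a above 0, at 0.91 with a standard error of 0.49 (adjusted p = 0.677). The counts therefore did not fix a direction for Top2a.

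**Figure D2:**
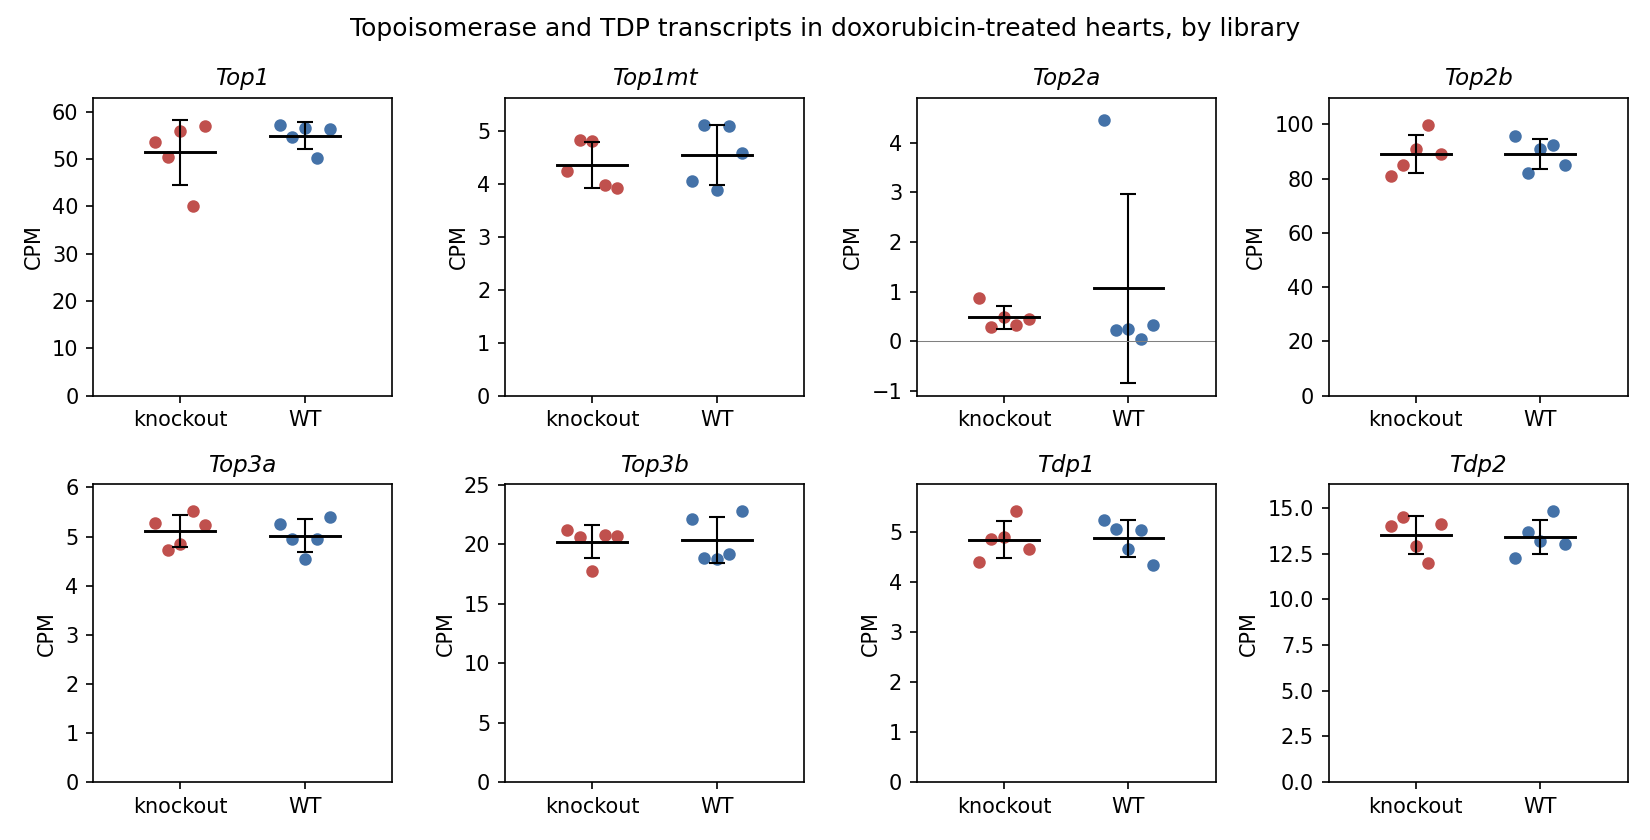
Level of each gene in CPM (y axis), with 1 point per library, knockout libraries left of WT libraries, a horizontal line at the mean and a bar of 1 SD (n = 5 per group). Knockout and WT points overlap in each of the 8 panels, and WT library 1 stands at 4.46 CPM in the Top2a panel while the other 9 libraries lie between 0.0481 and 0.866 CPM.

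Within the type II reads of each heart nearly all came from Top2b. Top2a made up 0.324% to 1.06% of the Top2a and Top2b counts in knockout libraries, against 0.0521% to 0.391% in WT libraries 2 to 5 and 4.46% in WT library 1. The exact (Clopper-Pearson) 95% interval for WT library 1 was 3.88% to 5.10%, and that for the highest knockout library was 0.664% to 1.60%, counting error only. The log2 ratio of Top2a to Top2b averaged -7.59 ± 0.68 in knockout hearts and -7.90 ± 2.15 in WT hearts (SD, n = 5 each). The difference of 0.31 did not pass a two-sided exact permutation test (p = 0.754, adjusted over 3 ratios p = 0.873), for which 5 against 5 allows no p below 0.00794. Without WT library 1 the difference was 1.18 (exact permutation p = 0.0556). In bulk hearts a change in the number of dividing cells and a change in transcript per cell cannot be told apart.

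The excess of Top2a in WT library 1 came with markers of other cells. In that library 31 of the 35 listed proliferation genes had their highest level of all 10 libraries, and the list summed to 149 CPM, against 92.3 to 116 CPM in knockout libraries and 103 to 114 CPM in WT libraries 2 to 5. Mki67, the proliferation marker, stood there at 4.35 CPM, while the other 9 libraries held 0.714 to 2.10 CPM, and Ccna2, which encodes cyclin A2, at 1.74 CPM, against 0.192 to 0.515 CPM. Of 12 macrophage markers 11 were highest there, with a sum of 546 CPM against 129 to 175 CPM in knockout libraries and 126 to 193 CPM in the other WT libraries. All 7 fibroblast markers were highest there too, summing to 1565 CPM, against 686 to 807 CPM in knockout libraries and 782 to 939 CPM in the other WT libraries. All 9 mesothelium markers and all 7 atrial markers were highest there as well. Of other lists, 1 of 7 endothelium, 4 of 13 lymphoid and thymus and 2 of 6 erythroid markers were highest there. The share of all tested genes with their highest level in WT library 1 was not worked out. The mesothelium markers summed to 149 CPM there, against 19.6 to 38.7 CPM in knockout libraries and 37.5 to 51.3 CPM in WT libraries 2 to 5. The lung and airway secretory marker Scgb1a1 was at 732 CPM, and the listed cardiomyocyte markers were at their lowest sum, 21551 CPM. The part of these cells in the Top2a level was not tested. WT library 3 had 76.9 CPM of lung and airway markers with Top2a at 0.249 CPM. Lymphoid and thymus markers summed to 20.9 CPM in knockout library 2, where Top2a was at 0.282 CPM, and to 15.3 CPM in WT library 1. In the other 8 libraries they summed to 0.762 to 2.89 CPM.

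**Figure D3:**
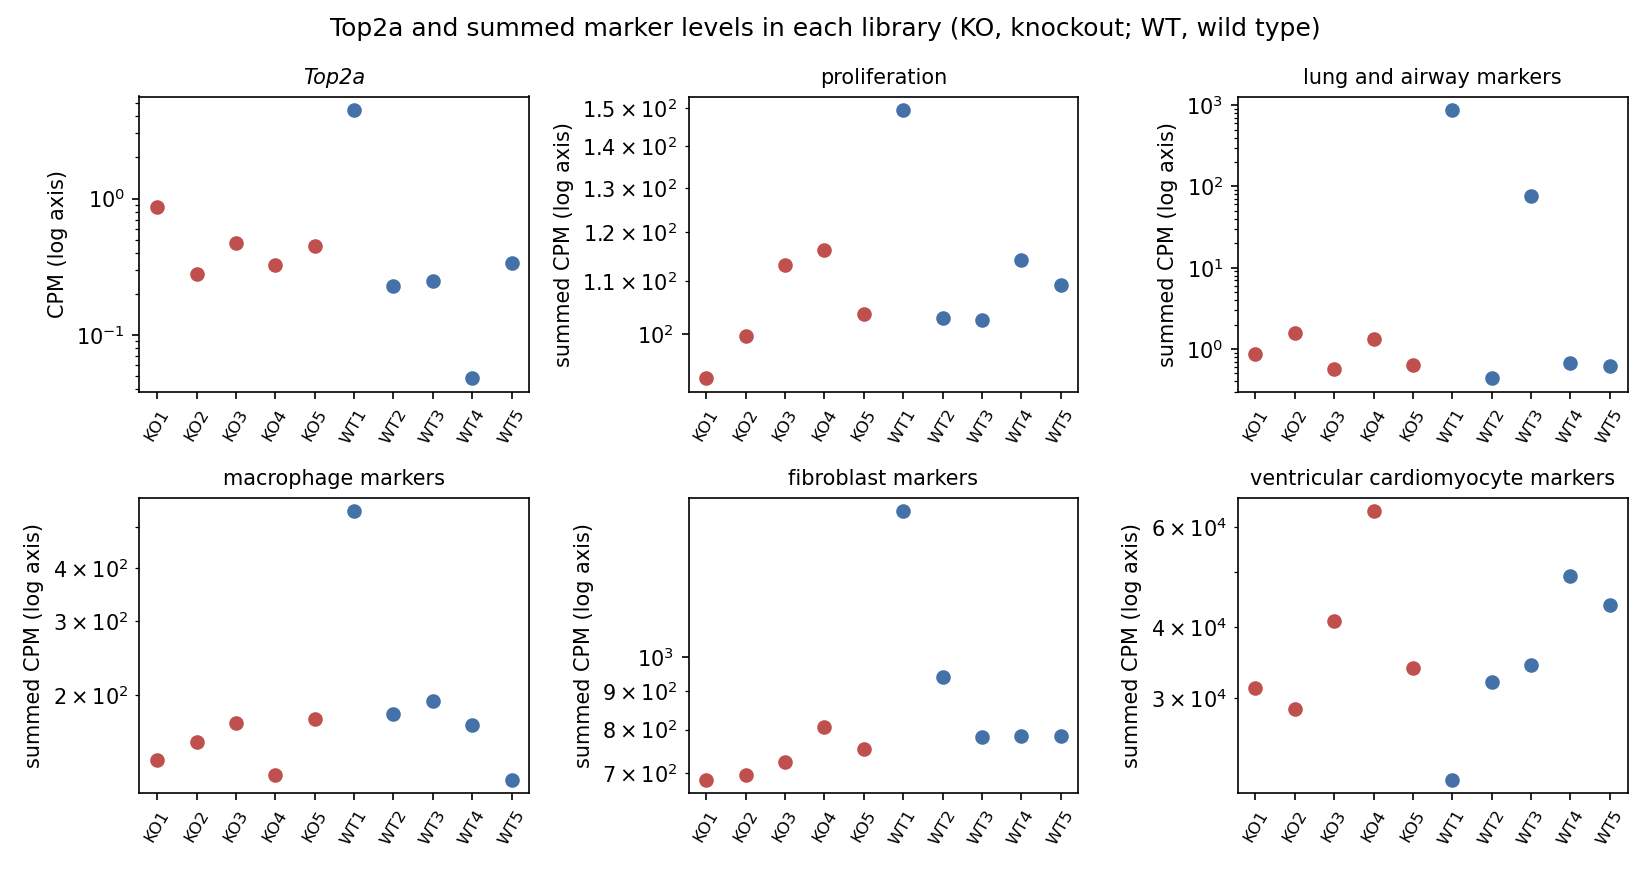
Top2a in CPM and summed CPM of 5 marker lists (y axes, log scale) in each library (x axis), knockout libraries first. WT library 1 is highest for Top2a and for the proliferation, lung and airway, macrophage and fibroblast lists. It is lowest for the list titled ventricular cardiomyocyte markers, whose genes are not all specific to the ventricle.

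By a rule on likeness over the 10 libraries, the genes nearest in profile to Top2a included Adam12, a metalloprotease gene, Kif1a, a kinesin motor gene, Tsku and the matrix protein gene Npnt. Their profiles lay within a root mean square difference of 0.61 to 0.67 log2 units of Top2a, out of 12250 genes compared, where the profile of Top2a itself had a root mean square of 1.31 about its mean. These 4 were highest in WT library 1, with Adam12 at 9.49 CPM against 0.144 to 0.719 CPM elsewhere and Npnt at 6.96 CPM against 0.0962 to 0.869 CPM elsewhere. The rule largely set this in advance, because the Top2a profile itself was high in that library alone. None of the 4 is on the proliferation list. However, only tested protein-coding genes with a mean of at least 1 CPM were compared. Listed proliferation genes under that mean, such as Ccna2 at 0.376 CPM in knockout and 0.611 CPM in WT hearts, could not be returned. For the genes under that mean, absence was thus set in advance. Other listed proliferation genes lay above it, such as Mki67 at 1.08 CPM in knockout and 2.15 CPM in WT hearts. Anln, also on the list, had 1.77 CPM in knockout and 2.50 CPM in WT hearts. Mki67 and Anln could be returned and were not among the 4. The genes nearest to Top2b included Marchf8, Gpalpp1, Cyrib and Usp25, within 0.04 to 0.05 log2 units, where Top2b itself had a root mean square of 0.09 about its mean.

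Top1 (ENSMUSG00000070544, chromosome 2, 160487802 to 160566298) encodes the nuclear type I enzyme that relaxes DNA ahead of polymerases. Knockout libraries 1 to 5 held 53.7, 50.3, 56.0, 40.1 and 56.9 CPM, against 57.2, 54.7, 56.5, 50.1 and 56.3 CPM in WT libraries 1 to 5. Knockout library 4 was the lowest and the remaining 9 lay between 50.1 and 57.2 CPM. The log2 fold change was -0.10 with a standard error of 0.09 (edgeR adjusted p = 0.848), and without knockout library 4 it was -0.02 (edgeR adjusted p = 0.964). Top1mt (chromosome 15, 75527333 to 75550660), its mitochondrial counterpart, had 4.36 ± 0.435 CPM in knockout hearts and 4.55 ± 0.570 CPM in WT hearts (SD, n = 5 each). It rested on 101 to 200 counts per library, and its log2 fold change was -0.06 with a standard error of 0.13 (edgeR adjusted p = 0.938). The log2 ratio of Top1mt to Top1 averaged -3.55 ± 0.21 in knockout hearts and -3.60 ± 0.25 in WT hearts, a difference of 0.05 (exact permutation p = 0.730, adjusted p = 0.873).

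Top3a and Top3b encode type IA enzymes, which cut 1 strand and pass another through it. Top3a acts with the helicase Blm on crossed DNA strands and also serves mitochondrial DNA, and Top3b acts on DNA and RNA with the partner protein encoded by Tdrd3. Top3a (chromosome 11, 60629009 to 60668333) had 5.12 ± 0.326 CPM in knockout hearts and 5.02 ± 0.332 CPM in WT hearts (SD, n = 5 each), a log2 fold change of 0.03 (edgeR adjusted p = 0.967). Its gene overlaps Shmt1, a folate enzyme gene on the same strand, by 7149 bases, and reads in shared exons are uncertain. Shmt1 held 133 to 287 counts per library, about as many as the 102 to 239 of Top3a. Top3b (chromosome 16, 16688572 to 16711269) had 21.2, 20.6, 17.8, 20.8 and 20.7 CPM in knockout libraries 1 to 5, against 22.1, 18.9, 18.8, 19.2 and 22.8 CPM in WT libraries 1 to 5. Knockout library 3 was the lowest of all 10, and WT libraries 1 and 5 were the highest 2. Its log2 fold change was -0.01 (edgeR adjusted p = 0.987).

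Tdp1 and Tdp2 encode the enzymes that free DNA ends from trapped topoisomerase. Tdp1 acts mainly on the tyrosine bond left by topoisomerase I, and Tdp2 on that left by topoisomerase II, the kind that doxorubicin traps. Tdp2 (chromosome 13, 25015156 to 25026138) had 14.0, 14.5, 12.9, 12.0 and 14.1 CPM in knockout libraries 1 to 5, against 12.3, 13.7, 13.2, 14.8 and 13.0 CPM in WT libraries 1 to 5. The 2 groups cover nearly the same range, and the log2 fold change was 0.01 with a standard error of 0.08 (edgeR adjusted p = 0.983). The start of Tdp2 overlaps Acot13 on the other strand by 392 bases. Acot13, a thioesterase gene, held 2062 to 3997 counts per library, against 271 to 559 for Tdp2. Tdp1 (chromosome 12, 99850737 to 99923763) had 4.85 ± 0.372 CPM in knockout hearts and 4.87 ± 0.364 CPM in WT hearts (SD, n = 5 each), with a log2 fold change of -0.01 (edgeR adjusted p = 0.992). The log2 ratio of Tdp2 to Tdp1 averaged 1.47 ± 0.21 in knockout hearts and 1.46 ± 0.14 in WT hearts, a difference of 0.02 (exact permutation p = 0.873, adjusted p = 0.873).

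Scaled by exon length, the 8 genes kept 1 order in both genotypes. In CPM per kilobase of annotated exon, knockout hearts had Top2b at 5.70 ± 0.453, Top1 at 4.24 ± 0.562, Tdp2 at 3.54 ± 0.274, Top3b at 2.20 ± 0.150, Top1mt at 0.910 ± 0.0907, Top3a at 0.674 ± 0.0429, Tdp1 at 0.366 ± 0.0280 and Top2a at 0.0526 ± 0.0253. In the same order and unit, WT hearts had 5.71 ± 0.353 for Top2b, 4.53 ± 0.235 for Top1, 3.51 ± 0.247 for Tdp2, 2.21 ± 0.211 for Top3b, 0.949 ± 0.119 for Top1mt, 0.661 ± 0.0437 for Top3a, 0.368 ± 0.0275 for Tdp1 and 0.117 ± 0.209 for Top2a (SD, n = 5 each). Neighbours in this order did not overlap across libraries, except Top1 with Tdp2 in knockout hearts and Tdp1 with Top2a in WT hearts, where WT library 1 alone put Top2a above Tdp1. Within each knockout library Top1 still stood above Tdp2. Among all tested genes the mean level of Top2b ranked at the 80.5th percentile per length, Top1 at the 75.2nd, Tdp1 at the 20.2nd and Top2a at the 2.66th. The exon length sets part of this order: with the longest coding transcript as length, Top1 came first and Top2b second, at 9.57 and 8.60 CPM per kilobase over all 10 libraries.

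**Figure D4:**
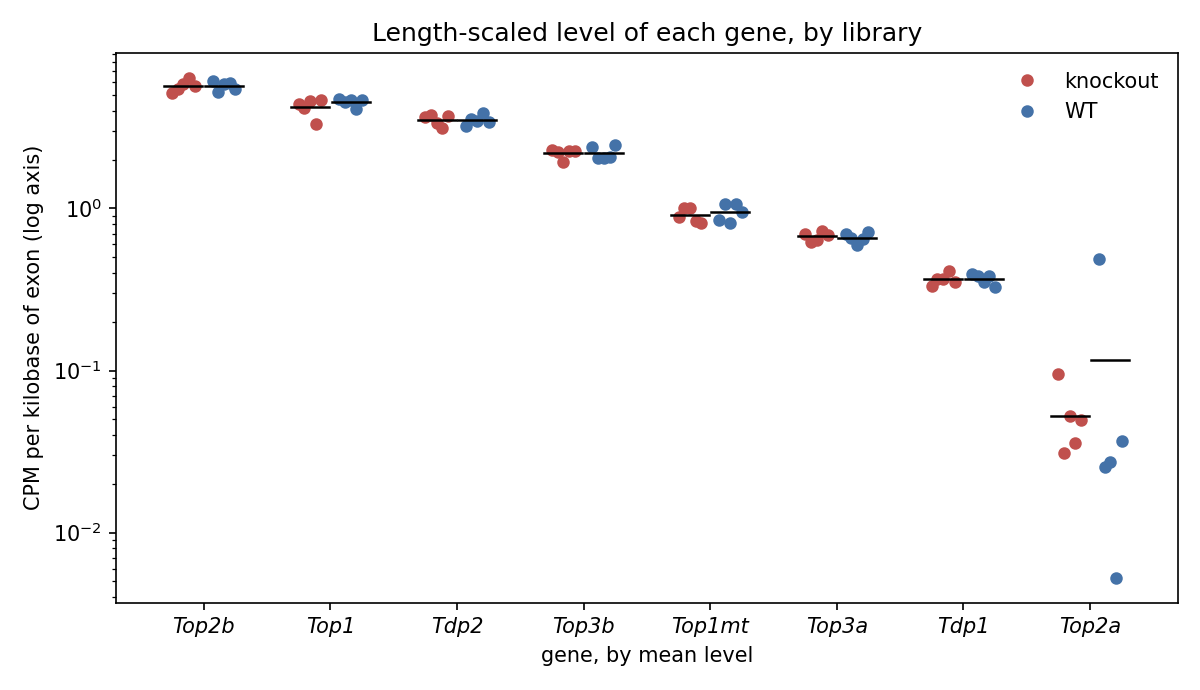
CPM per kilobase of annotated exon (y axis, log scale) for each gene, ordered by mean level over all libraries, with 1 point per library, knockout left of WT, and lines at the group means. Top2b lies at 5.18 to 6.38 in knockout and 5.25 to 6.12 in WT libraries, and Top2a at 0.0309 to 0.0950 in knockout and 0.00528 to 0.489 in WT libraries.

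The genes that work with these enzymes were also not called. Of 12 tested partner genes, 0 were called, with 5 log2 fold changes above 0 and 7 below and a median of -0.01. Ncapd2, a condensin subunit gene, had 12.5 ± 1.76 CPM in knockout hearts and 10.1 ± 1.08 CPM in WT hearts (SD, n = 5 each; edgeR adjusted p = 0.642). Smc2, another condensin gene, had 2.55 ± 0.610 and Tdrd3 17.6 ± 1.33 CPM in knockout hearts, against 3.37 ± 1.25 and 19.0 ± 0.453 CPM in WT hearts. Smc2 was at 5.58 CPM in WT library 1 and at 1.82 to 3.19 CPM in the other 9 libraries. Of 20 tested genes for removal of trapped enzyme, 0 were called and 10 lay on each side of 0. The DNA end resection gene Rbbp8 had 5.30 ± 0.546 CPM in knockout hearts and 7.07 ± 2.33 CPM in WT hearts (edgeR adjusted p = 0.717). It was at 11.1 CPM in WT library 1 and at 4.56 to 6.72 CPM in the other 9 libraries. Ubxn7, an adaptor gene of the unfolding ATPase p97, had 42.9 ± 0.890 and Sumo2, which encodes a small protein modifier, 80.8 ± 4.57 CPM in knockout hearts, against 39.9 ± 1.79 and 75.2 ± 1.79 CPM in WT hearts.

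The repair genes that act after the enzyme is removed were not called either. Of 12 tested single-strand break repair genes, 0 were called, with 2 log2 fold changes above and 10 below 0 and a median of -0.04. Aplf, an end-processing scaffold gene, had 2.89 ± 0.209 CPM in knockout hearts and 3.60 ± 0.430 CPM in WT hearts, and its groups did not overlap, but it did not pass (edgeR adjusted p = 0.699). The scaffold gene Xrcc1 had 9.61 ± 0.973 and the ligase gene Lig3 20.8 ± 0.759 CPM in knockout hearts, against 10.4 ± 0.201 and 21.5 ± 1.13 CPM in WT hearts. Of 20 tested double-strand break repair genes, 0 were called, with 7 above and 13 below 0 and a median of -0.04. The ubiquitin ligase gene Rnf8 had 8.87 ± 0.633 and the damage mediator gene Trp53bp1 35.5 ± 2.23 CPM in knockout hearts. In WT hearts they had 9.93 ± 1.01 and 33.1 ± 3.40 CPM (lowest edgeR adjusted p of the list, 0.750).

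Mitochondrial and proliferation lists bear on Top1mt, Top3a, Top2b and Top2a. Of 17 tested genes for mitochondrial DNA maintenance, 0 were called, 8 lay above and 9 below 0, and the median was -0.0027. Without WT library 1, where this list had its lowest sum, 6 lay above and 11 below 0 and the median was -0.04. The inner membrane protein gene Mpv17 had 51.1 ± 3.71, the p53-inducible ribonucleotide reductase gene Rrm2b 54.9 ± 4.49 and the mitochondrial polymerase gene Polg 49.7 ± 3.11 CPM in knockout hearts. In WT hearts they had 43.5 ± 6.57, 49.4 ± 1.99 and 46.0 ± 3.86 CPM (lowest edgeR adjusted p of the list, 0.715). Mpv17 was at 32.7 CPM in WT library 1 and at 41.9 to 56.4 CPM in the other 9 libraries. Of 8 genes for mitochondrial regulators tied to Top2b in the literature on this drug, 0 were called and 4 lay on each side of 0. In that list the coactivator gene Ppargc1b had 11.9 ± 4.30, its relative Ppargc1a 147 ± 10.5 and the transcription factor gene Gabpa 59.6 ± 6.54 CPM in knockout hearts, against 8.76 ± 1.57, 140 ± 22.4 and 57.4 ± 3.55 CPM in WT hearts. Of 23 tested proliferation genes, 0 were called, 22 lay below 0 and the median was -0.22. Mki67 had 1.08 ± 0.307, the kinesin gene Kif20a 0.529 ± 0.129 and the mitotic kinase gene Aurka 0.303 ± 0.104 CPM in knockout hearts, against 2.15 ± 1.27, 0.815 ± 0.329 and 0.452 ± 0.141 CPM in WT hearts. Without WT library 1 the list had 11 genes above and 12 below 0 and a median of -0.03, in which Top2a was not included. For comparison, 53.4% of all tested genes lay below 0 with all libraries and 49.1% without WT library 1.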

How the data were processed

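Per the labels' protocols and the submitters' processing notes, STAR 2.5.2 aligned the reads to GRCm39, and RSEM 1.3.0 is listed. The authors deposited expected counts per gene, which were whole numbers, so nothing was rounded. The sources used here do not give the annotation release, the strand setting or trimming. Symbols and positions came from GENCODE for GRCm39. The labels give no batch and do not say whether hearts were pooled, so a p-value reflects the spread among libraries. Titles begin with DOXF in the WT and with S in the knockout group, and a batch that went with them cannot be told apart from genotype.

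Genes were tested over the whole table with edgeR 4.0.16 in R 4.3.3 (TMM, minimum count of 10, robust quasi-likelihood F test, Benjamini-Hochberg adjustment at 0.05). Standard errors are the absolute log2 fold change over the square root of F, and 95% intervals follow from them. CPM used TMM-scaled totals of tested genes. Ratios used a pseudocount of 0.5 counts. DESeq2 1.42.0 and limma 3.58.1 were alternatives. The edgeR step was also run on simulated counts. Its rate of recovery is not reported here, so that run adds no support to the results. Named genes were the 8 members, the 3 of smallest p in each pathway list, the 5 nearest profiles to Top2a and Top2b, and Mapk13. Ccna2, Scgb1a1, Cdkn1a, Myh6, Tnnt2, Myl7, Sln, Bmp10, Nppa and genes that overlap a member were named outside that rule with their values known. A few genes that the rule reached are not reported here. The members and lists were chosen with earlier results of these data known. Intervals of fold changes include the spread between libraries, while the Clopper-Pearson intervals and the floors cover counting error only.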

Additional observations from a re-analysis of the deposited data

Results flagged for a closer look

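Of 22 tests for a library apart from the other 4 of its group, over the 8 levels and 3 ratios, 2 found one, and chance gives about 1 in 20. Top3b in knockout library 3 was low, at 17.8 CPM, while the other 4 knockout libraries held 20.6 to 21.2 CPM. Top2a in WT library 1 was high, at 4.46 CPM, while the other 4 WT libraries held 0.0481 to 0.334 CPM.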

How the results depend on the processing

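In 18 alternative fits with other scalings, tools, filters or libraries left out, 0 of the 8 genes were called. The count of genes called over the whole table was 59, and it was 118 with DESeq2, 91 with limma voom and quality weights, and 47 to 75 when 1 library was left out. The 7 genes other than Top2a kept log2 fold changes between -0.20 and 0.06. Their lowest values came with library totals alone, which moved the median of all tested genes by -0.10. Top1 and Top1mt stayed below 0 in all 18, while signs of the others changed in 2 to 9 fits. Top2a had a value in 16 fits, from -1.53 to 1.04, and was above 0 only without WT library 1 and with limma voom. It was removed by the filter that asks 5 libraries for 1 CPM, and by that on counts without both WT library 1 and knockout library 4. The log2 ratio of Top2a to Top2b differed by -0.29 to 1.18 with 1 library left out, and by 0.04 with a pseudocount of 5 counts. By the longest coding transcript, 2 of the 8 genes changed rank, as given above for Top1 and Top2b. No paired analysis was possible because the labels give no pairing of knockout with WT hearts. Knockout titles carry no replicate numbers, so those libraries are numbered here in the order of their titles. Depth limits Top2a most, with 65 counts over the 5 knockout libraries and 31 over WT libraries 2 to 5.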

Other observations

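Knockout library 4 held the highest or lowest level of all 10 libraries for 5 of the 8 genes, while no other library did so for more than 2. It had the highest Top2b, at 99.7 CPM against 81.0 to 95.6 CPM elsewhere, the highest Top3a, at 5.51 CPM against 4.54 to 5.40 CPM, and the highest Tdp1, at 5.42 CPM against 4.35 to 5.25 CPM. It had the lowest Top1, at 40.1 CPM against 50.1 to 57.2 CPM, and the lowest Tdp2, at 12.0 CPM against 12.3 to 14.8 CPM. The p53 target Cdkn1a stood at 13.7 CPM in that library and at 65.9 to 105 CPM in the remaining 9, and was picked with these values known. That library also had the highest summed cardiomyocyte markers, 64093 CPM. Whether these values are linked was not tested. The margins for Top3a, Tdp1 and Tdp2 were small, on 170, 167 and 369 counts in knockout library 4. The share of all tested genes with an extreme in that library was not worked out. The count of 5 therefore cannot be read as particular to the 8 genes.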
